A study of Arabidopsis thaliana with 10 samples.

Results

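The small heat shock proteins of Arabidopsis thaliana were followed through 5 groups of leaf RNA libraries. The 10 genes were taken by gene ID from a table of 33602 genes. They are 6 cytosolic genes, of which 4 belong to class I and 2 to class II, and 4 genes whose proteins go to organelles. The class I genes are HSP17.6C (AT1G53540), HSP17.6A-CI (AT1G59860), HSP17.6B (AT2G29500) and HSP17.4A (AT3G46230). The class II genes are HSP17.6II (AT5G12020) and HSP17.7 (AT5G12030). The organelle genes are the plastid HSP21 (AT4G27670, listed as HSP25.3), the mitochondrial HSP23.6 (AT4G25200) and HSP23.5 (AT5G51440), and HSP22.0 (AT4G10250) of the endoplasmic reticulum.

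On TAIR10, as the table gives positions, HSP17.6C lies at chr1:19980462-19981109 (plus strand), HSP17.6A-CI at chr1:22031413-22032132 (plus) and HSP17.6B at chr2:12633091-12633805 (minus). HSP17.4A lies at chr3:16984118-16984841 (minus), HSP17.6II at chr5:3882237-3882938 (minus) and HSP17.7 at chr5:3884107-3884737 (minus). HSP21 lies at chr4:13818870-13819971 (minus), HSP23.6 at chr4:12917017-12918053 (plus), HSP23.5 at chr5:20891163-20892211 (plus) and HSP22.0 at chr4:6370343-6371291 (plus). In the RefSeq annotation HSP21, HSP23.6 and HSP23.5 have 2 coding exons, and the other 7 genes have 1.

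PolyA RNA came from the fifth true leaves of plants 4 weeks old, raised under 16 h light and 8 h dark and kept at 22 °C for their first week. The groups, with 2 libraries each, were wild-type Col-0 grown on at 22 °C, Col-0 moved to 30 °C (generation 1, here 30 °C-grown), progeny of those plants raised without the stress (generation 2), unstressed offspring of generation 2 (generation 3), and unstressed sgs3-12 mutants. SGS3 works with the RNA-dependent RNA polymerase RDR6 in the production of trans-acting small RNAs. The labels do not say whether paired libraries came from separate plants, so a p-value here reflects the spread among the libraries alone, and that spread may be technical. Library totals ran from 17674090 to 23145159 counts, and 19768 genes passed the filter on low counts. All 10 small heat shock protein genes were among them, but HSP21, HSP23.6 and HSP22.0 passed only through the 30 °C-grown libraries. With those libraries left out of the filter, 7 of the 10 and 19451 genes passed, and counts that set 30 °C-grown plants against others are read over these 7. Summed over 7 photosynthesis genes, leaf markers stood at 41872 to 102392 CPM (counts per 1000000), and 7 seed storage and maturation genes summed to at most 0.177 CPM. SGS3 itself stood at 24.0 and 35.1 CPM for wild type and at 9.40 and 8.02 CPM in sgs3-12, and the lesion of the allele was not described in the labels. In generation 2, SGS3 was at 9.48 and 7.87 CPM, so its level did not separate the mutant from those plants.

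Small heat shock proteins are chaperones that work without ATP. They assemble into oligomers, bind proteins that begin to unfold and keep them soluble until HSP70 and HSP101 machines refold them. Their genes are nearly silent in unstressed leaves and are switched on by heat shock factors, which bind heat shock elements, inverted repeats of the unit GAA in the promoter.

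These elements were searched in the 300 bases before each gene model of the table, because the factor family that reads them is measured in the same libraries. The letters were GAANNTTC or TTCNNGAA for a pair of units, which read as themselves on the other strand, and GAANNTTCNNGAA or TTCNNGAANNTTC for 3 units, each of which holds 2 overlapping pairs. A pair was present in 9 of the 10 genes, all but HSP22.0, against 19.6% of 26711 nuclear promoters of the same length. A run of 3 units was present in HSP17.6C and HSP17.4A, against 0.535% of promoters. When the windows were set from RefSeq gene starts instead, pairs were present in 5 of the 10 genes against 19.2%, and runs of 3 in the same 2 genes against 0.490%. A match is a match of letters and was not tested as a binding site. The sequences below are from RefSeq (TAIR10.1, gene strand, 5′ to 3′), with the units in capitals. The 3 longer stretches end at the RefSeq start, and show the genes with 3 units and the gene with none. The 30-base stretches show a pair in the other genes, for HSP17.6B the nearer of its 2 to the table's gene model. The pairs shown for HSP17.6A-CI, HSP17.6B, HSP17.6II and HSP23.6 lie before the table's gene model but inside the RefSeq gene.
HSP17.6C, chr1:19980179-19980298, plus strand: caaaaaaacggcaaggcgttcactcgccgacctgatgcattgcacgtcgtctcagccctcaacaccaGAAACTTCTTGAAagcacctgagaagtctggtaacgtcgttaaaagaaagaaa
HSP17.4A, chr3:16984868-16984987, minus strand: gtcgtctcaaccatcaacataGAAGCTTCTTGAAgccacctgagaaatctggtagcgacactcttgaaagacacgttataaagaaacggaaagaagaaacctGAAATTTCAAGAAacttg
HSP22.0, chr4:6370218-6370337, plus strand: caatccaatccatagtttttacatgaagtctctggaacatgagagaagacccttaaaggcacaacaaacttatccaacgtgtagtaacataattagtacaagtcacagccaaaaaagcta
HSP17.6A-CI, chr1:22031339-22031368, plus strand: atttgcctcatTTCTAGAAgctctggagat
HSP17.6B, chr2:12633838-12633867, minus strand: gagaagctcgaGAAATTTCggttagtacct
HSP17.6II, chr5:3883035-3883064, minus strand: gaccaagacgtTTCTCGAAcaatacggaag
HSP17.7, chr5:3884842-3884871, minus strand: gatcaagacgtTTCTCGAAcgttagagaag
HSP21, chr4:13820053-13820082, minus strand: aaacgagtcgaGAAACTTCgtatcaaatct
HSP23.6, chr4:12916928-12916957, plus strand: ccacttctccaGAACATTCactcactgaca
HSP23.5, chr5:20891058-20891087, plus strand: agaccacgcagTTCTAGAAccatccttaag

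**Figure D1:**
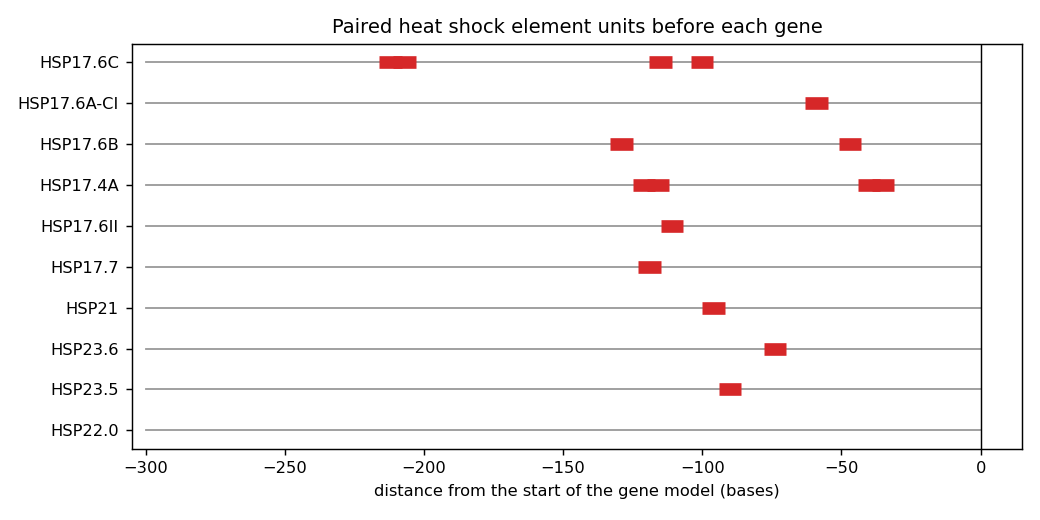
Position of each pair of heat shock element units (red bars, 8 bases) in the 300 bases before the table's gene model (grey line, distance in bases). HSP17.6C and HSP17.4A hold 4 overlapping or separate pairs each, HSP17.6B holds 2, HSP22.0 holds none and the other 6 genes hold 1.

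HSP17.6II and HSP17.7 are neighbours on chromosome 5, with 1168 bases between their models. Their coding sequences are 86.1% identical, with a longest shared run of 33 bases. HSP17.6C and HSP17.4A are 85.0% identical, and HSP17.6A-CI is 88.1% identical to HSP17.8-CI, a class I gene outside the 10. The labels do not tell how reads common to such copies were assigned, which leaves the division between them uncertain. HSP17.4A also overlaps the neighbouring gene AT3G46220 by 60 bases. That neighbour ranged from 2.58 to 23.5 CPM over the 10 libraries, and both 30 °C-grown libraries were below both wild-type libraries for it.

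The first comparison was of plants grown at 30 °C with wild type at 22 °C. Every gene was higher in both 30 °C-grown libraries than in both wild-type libraries, as were 26.3% of all genes tested. HSP21, HSP23.6 and HSP22.0 had entered the test only through the 30 °C-grown libraries. In the means of the 8 genes that had counts in wild type, levels were 6.54 to 28.9 times higher. The summed level of the 10 genes was 3.09 and 10.4 CPM in wild type and 121 and 98.0 CPM in 30 °C-grown plants. In bulk leaves, fewer cells of a type and less RNA per cell cannot be told apart.

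HSP17.6B, the most abundant of the class I genes, stood at 1.24 and 3.94 CPM for wild type and at 39.99 and 27.7 CPM in 30 °C-grown plants, 13.1 times higher in the mean. HSP17.4A stood at 0.0442 and 1.62 CPM for wild type and at 21.6 and 12.3 CPM at 30 °C, 20.3 times higher. The wild-type libraries differed for both genes, and for HSP17.4A they held 1 and 35 counts, so that its ratio rests on library 2 of wild type. Neither wild-type library reached a 30 °C-grown one for either gene. HSP17.6A-CI stood at 1.15 and 1.16 CPM for wild type and at 15.1 and 17.04 CPM at 30 °C, 13.9 times higher. Its libraries lay close together in both groups, and in wild type closer than those of any other gene of the 10 with counts in both. HSP17.6C stood at 0 and 0.881 CPM for wild type and at 6.90 and 6.47 CPM at 30 °C, 15.2 times higher.

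The class II genes form oligomers of their own, apart from those of class I. HSP17.6II stood at 0.133 and 0.881 CPM for wild type and at 2.87 and 3.76 CPM at 30 °C, 6.54 times higher and the smallest ratio of the 8. HSP17.7 stood at 0.0442 and 0.788 CPM for wild type and at 5.15 and 4.27 CPM at 30 °C, 11.3 times higher. The groups did not overlap for either gene.

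Among the organelle genes, HSP23.5 was the most abundant at 30 °C. HSP23.5 stood at 0.486 and 0.973 CPM for wild type and at 21.2 and 21.01 CPM at 30 °C, 28.9 times higher. HSP23.6 had 0 counts in both wild-type libraries and 128 and 80 counts at 30 °C (6.22 and 3.38 CPM). A floor of 3 counts over the wild-type group corresponds to 0.0679 CPM, so HSP23.6 was at least 70.7-fold higher, with the floor covering counting error only. HSP21, which protects plastid proteins, had 0 counts in wild type and only 9 and 13 counts at 30 °C, at least 7.27-fold higher. HSP22.0 had 0 and 4 counts in wild type and 29 and 35 counts at 30 °C (1.41 and 1.48 CPM), 15.6 times higher.

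**Figure D2:**
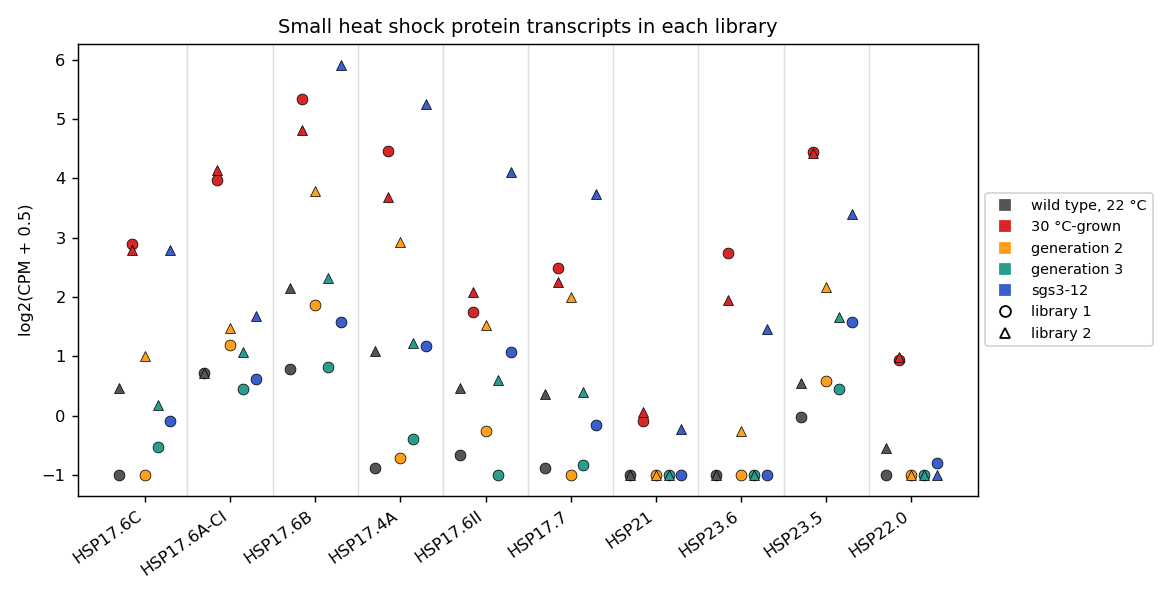
Transcript level of each of the 10 genes, as log2(CPM + 0.5), in each of the 10 libraries (color, group; circle, library 1; triangle, library 2; −1 is 0 counts). Both 30 °C-grown libraries lie above both wild-type libraries for all 10 genes, as for 26.3% of all genes tested. HSP21, HSP23.6 and HSP22.0 were tested only because of the 30 °C-grown libraries. Library 2 of sgs3-12 lies above both 30 °C-grown libraries for HSP17.6B, HSP17.4A, HSP17.6II and HSP17.7.

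On the log2 scale the median difference of the 10 genes, 30 °C-grown minus wild type, was 3.90 (3.84 with HSP21 and HSP23.6 set at their bounds), against −0.02 over all genes tested. It was 3.24 without library 1 of wild type and 6.48 without library 2 of wild type. In the latter fit HSP17.6C and HSP22.0 too were left at 0 counts in wild type. Over the 7 genes that passed the filter without the 30 °C-grown libraries the median was 3.79. The groups did not overlap for any of these 7, where 25.7% of the genes passing that filter, and 26.3% of all genes tested, had both 30 °C-grown libraries above both wild-type libraries. For HSP21, HSP23.6 and HSP22.0 the non-overlap follows in part from how they entered the test. With edgeR's quasi-likelihood test, 0 of the 10 passed an adjusted p of 0.05, and so did 0 of all genes tested (background 0%). At an unadjusted p under 0.05 edgeR found 6 of the 10, all higher and 3 of them among the 7, and 1564 of all genes. The log2 difference of HSP17.6A-CI was 3.79 ± 0.58 (SE, 2 libraries a group, edgeR adjusted p = 0.398), which ranked 6 among all genes by p, and that of HSP23.5 was 4.85 ± 0.99 (edgeR adjusted p = 0.398). DESeq2 called 276 genes, 0.811% of its genes in the upward direction, and limma on log2(FPKM + 1) called 1. The DESeq2 calls included HSP17.6A-CI (DESeq2 adjusted p = 1.02e-06) and HSP23.5 (DESeq2 adjusted p = 9.85e-05). Over all alternatives run, the adjusted p of these 2 genes reached 1, in fits left with a single 30 °C-grown library.

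**Figure D3:**
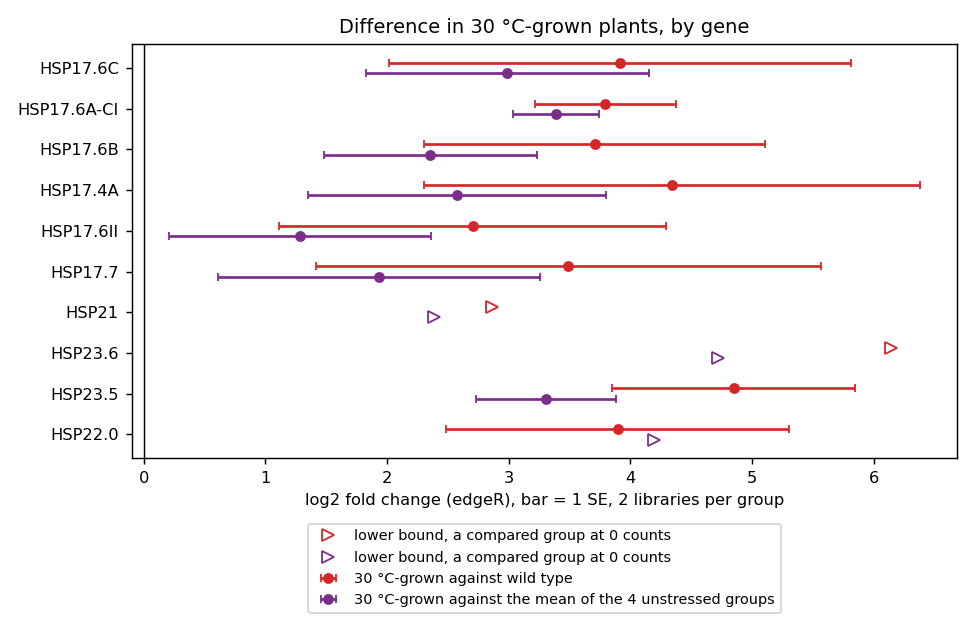
Fitted log2 fold change of each gene (edgeR; point, estimate; bar, 1 SE) in 30 °C-grown plants against wild type and against the mean of the 4 unstressed groups; open triangles are lower bounds where a compared group had 0 counts. HSP17.6A-CI, at 3.79 ± 0.58 and 3.39 ± 0.35, has the shortest bars, and those of HSP17.6C, HSP17.4A and HSP17.7 are the longest against wild type.

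Within 30 °C-grown plants, levels can be compared between genes per transcript length, as FPKM (fragments scaled by transcript length and library size), computed here from counts. HSP17.6B was highest at 51.6 ± 13.1 FPKM (mean ± SD, n = 2). HSP17.4A (25.5 ± 9.82), HSP23.5 (25.3 ± 0.133) and HSP17.6A-CI (24.4 ± 2.12) came next in FPKM and did not differ beyond their spread. Below them HSP17.6C stood at 11.3 ± 0.489 FPKM, with no overlap with the genes above or below. HSP17.7 at 8.14 ± 1.06 FPKM overlapped HSP23.6 at 5.82 ± 2.42 FPKM, which overlapped HSP17.6II at 5.15 ± 0.996 FPKM. HSP22.0 at 1.66 ± 0.0610 FPKM and HSP21 at 0.574 ± 0.0936 FPKM were lowest. The plastid gene was thus the least abundant, and the cytosolic genes made up 80.1% and 77.8% of the summed FPKM in these libraries.

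The next question was how the genes stood in unstressed progeny of the 30 °C-grown plants. In generation 2 they were low in library 1 and intermediate in library 2, with summed levels of 6.39 and 34.4 CPM. HSP17.6B was at 3.14 and 13.3 CPM, HSP17.4A at 0.112 and 7.09 CPM, and HSP23.5 at 1.01 and 3.98 CPM. HSP17.7 was at 0 and 3.50 CPM, and HSP17.6II at 0.336 and 2.38 CPM, so that library 2 held these class II transcripts at 0.743 and 0.718 of the 30 °C-grown mean. HSP17.6A-CI, at 1.79 and 2.28 CPM, and HSP23.5 were the 2 genes with both libraries above both wild-type libraries, against 16.8% of all genes. HSP17.6C was at 0 and 1.51 CPM and HSP23.6 at 0 and 0.340 CPM. HSP21 and HSP22.0 had 0 counts in both libraries.

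Against wild type the median log2 difference in generation 2 was 1.55 (1.43 with genes at their bounds and HSP21 left out), with 8 genes positive and 1 negative, against 0.11 over all genes. Leaving out library 2 of generation 2 gave −0.36, and leaving out library 2 of wild type gave 3.03. edgeR called 0 of the 10, with 0 at an unadjusted p under 0.05 and 2302 such genes in all (background of calls 0%). DESeq2 also called 0 of the 10, against 617 genes in all and 1.78% called higher. HSP23.5 had the lowest edgeR adjusted p, 0.487, at a log2 fold change of 1.77 ± 0.91.

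Generation 3 stayed near wild type, with summed levels of 3.52 and 13.1 CPM against 3.09 and 10.4 CPM. HSP17.6B was at 1.26 and 4.47 CPM, HSP17.4A at 0.265 and 1.85 CPM, and HSP17.6A-CI at 0.862 and 1.60 CPM. Each of these pairs overlapped the wild-type pair. HSP17.6C was at 0.199 and 0.632 CPM, HSP17.6II at 0 and 1.02 CPM, HSP17.7 at 0.0663 and 0.827 CPM, and HSP23.5 at 0.862 and 2.67 CPM. HSP21, HSP23.6 and HSP22.0 had 0 counts in both libraries, where 3 counts over the group correspond to 0.0842 CPM. The median log2 difference from wild type was 0.09 (0.13 with HSP22.0 at its bound and the other zeros left out), with 6 genes positive and 2 negative. It ran from −1.08 to 1.52 as each library in turn was left out. None of the 10 had both libraries above both wild-type libraries, against 21.1% of all genes. edgeR called 0 of the 10 and found 0 at an unadjusted p under 0.05, against 1696 in all (background of calls 0%), and DESeq2 called 0, against 190 in all and 0.359% called higher.

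Set against the 30 °C-grown plants, both generations were lower for every gene in every library. In generation 2 the median log2 difference was −3.02 (−2.82 with genes at their bounds), and −2.22 over the 7 genes that passed without the 30 °C-grown libraries. All 7 had both libraries below both 30 °C-grown ones, as did 18.7% of all genes. The median of the 10 was −6.88 without library 2 of generation 2, the largest difference as each library in turn was left out. edgeR called 0 of the 10, with 4 at an unadjusted p under 0.05, 2 of them among the 7, against 1849 in all (background of calls 0%). DESeq2 called 319 genes, 0.465% lower, among them HSP17.6A-CI (−2.97 ± 0.56, DESeq2 adjusted p = 0.000404, edgeR 0.476) and HSP23.5 (−3.07 ± 0.90, DESeq2 adjusted p = 0.0428, edgeR 0.476).

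In generation 3 the median log2 difference from 30 °C-grown plants was −3.82 (−3.62 with genes at their bounds), and −3.56 over the same 7 genes, all of which were below in that way, as were 23.5% of all genes. The median of the 10 was −6.00 without library 2 of generation 3, again the largest difference as each library in turn was left out. edgeR called 0 of the 10, with 5 at an unadjusted p under 0.05, 3 of them among the 7, against 1360 in all (background of calls 0%). DESeq2 called 214 genes, 0.371% lower, among them HSP17.6A-CI (−3.69 ± 0.58, DESeq2 adjusted p = 5.53e-06, edgeR 0.563) and HSP23.5 (−3.56 ± 0.93, DESeq2 adjusted p = 0.0149, edgeR 0.580). The adjusted p of these genes reached 1 in other alternatives for both generations. These comparisons share the 30 °C-grown libraries with each other and with those above.

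The mutant comparison showed the largest difference within a pair. In sgs3-12 the summed level was 10.3 CPM in library 1, similar to library 2 of wild type, and 149 CPM in library 2, above both 30 °C-grown libraries. HSP17.6B was at 2.48 and 59.9 CPM, HSP17.4A at 1.76 and 37.5 CPM, and HSP17.6II at 1.60 and 16.7 CPM. HSP17.7 was at 0.400 and 12.9 CPM. In library 2 these 4 cytosolic genes exceeded both 30 °C-grown libraries, at 1.77, 2.22, 5.05 and 2.73 times the 30 °C-grown mean. HSP17.6C, at 0.440 and 6.41 CPM, came to 0.959 of that mean in library 2.

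The organelle genes and HSP17.6A-CI were lower in that library than in the heat. HSP23.5 was at 2.48 and 10.1 CPM, and HSP23.6 at 0 and 2.27 CPM, 0.476 and 0.473 of the 30 °C-grown mean in library 2. HSP21 had 0 and 8 counts, against 9 and 13 counts at 30 °C. It came to 0.722 of that mean in library 2, on counts too few to separate it from the 30 °C-grown libraries. HSP17.6A-CI was at 1.04 and 2.72 CPM, 0.169 of that mean, against 1.77 for HSP17.6B and 0.959 for HSP17.6C of the same class. HSP22.0 had 2 and 0 counts, so that the gene of the endoplasmic reticulum was not detected in the library where HSP17.6B had 1345 counts. Class II genes made up 22.9% of the summed FPKM of the cytosolic genes in that library, 26.6% in library 1 of sgs3-12, and 9.45% and 11.9% in 30 °C-grown plants. The share was also higher in library 2 of wild type (18.9%), generation 2 (20.9%) and generation 3 (18.7%) than in library 1 of those groups (7.10%, 6.37% and 2.81%). Those library 1 shares rest on only 4, 6 and 1 class II counts, against 36, 121 and 38 in library 2.

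**Figure D4:**
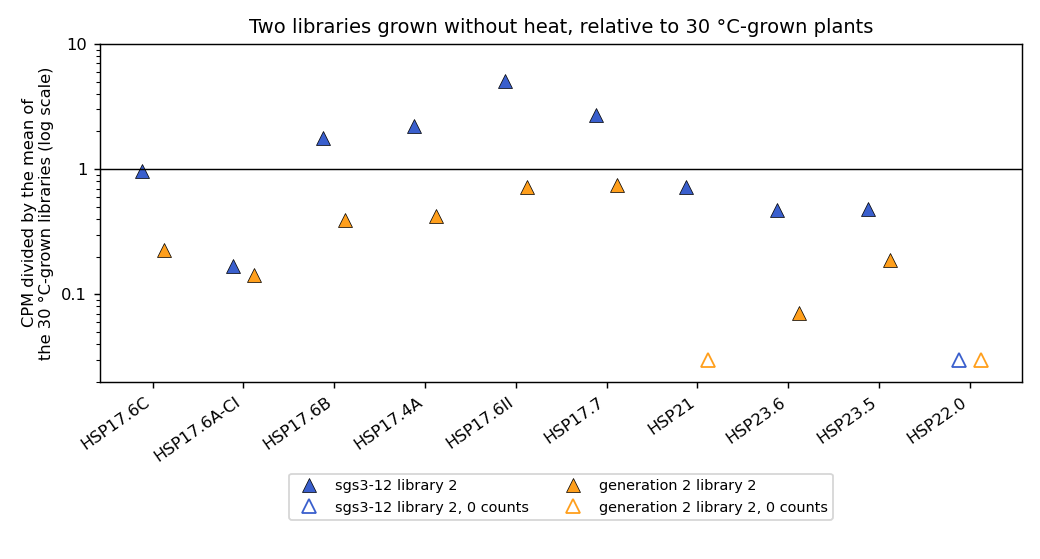
CPM of each gene in library 2 of sgs3-12 and library 2 of generation 2, divided by the mean of the 30 °C-grown libraries (log axis; line, equal level; open symbols at the foot, 0 counts). In the sgs3-12 library, HSP17.6II, HSP17.7, HSP17.4A and HSP17.6B lie above the line at 5.05, 2.73, 2.22 and 1.77, and HSP17.6A-CI lies at 0.169.

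Over both mutant libraries the median log2 difference from wild type was 3.79 (3.34 with genes at their bounds), with 9 genes positive, against 0.01 over all genes. Without library 2 of sgs3-12 it was −0.0022, and without library 2 of wild type 5.48. Neither mutant library overlapped wild type, both being higher, for HSP17.4A, HSP17.6II and HSP23.5, 3 of the 10, against 27% of all genes. edgeR called 0 of the 10, with 4 at an unadjusted p under 0.05 against 1959 in all (background of calls 0%). DESeq2 called 589 genes, 1.12% higher, among them HSP23.5 (3.09 ± 0.93, DESeq2 adjusted p = 0.0294, edgeR 0.377, up to 1 over the alternatives).

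The within-pair differences ran the same way in the unstressed groups. Library 2 was the higher for 8 genes and the lower for 0 in wild type, for 8 and 0 in generation 2, for 7 and 0 in generation 3, and for 9 and 1 in sgs3-12, the remaining genes being at 0 in both. In 30 °C-grown plants it was the higher for 4 and the lower for 6. Of all genes tested, library 2 was the higher for 53.0% in wild type, 49.7% in generation 2 and 49.5% in generation 3. That share was 48.7% in sgs3-12 and 49.8% in 30 °C-grown plants. The 10 genes varied together to different degrees, so they are not separate observations of a library. In sgs3-12, 6 of the 10 genes differed by more than 2 on the log2(CPM + 0.5) scale between the libraries, where 0.653% of all genes did. In generation 2, 3 of the 10 did, where 15.6% of all genes did. The labels name no batch, and what the libraries numbered 2 share was not tested. The correlation of log2 CPM across genes within a pair was 0.964 in sgs3-12 and 0.788 in generation 2.

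Genes with transcripts as short as these (631 to 949 bases, 2340 tested genes) lay 0.58 above their mean over all libraries in library 1 of generation 2, and 0.28 above in library 1 of generation 3, as medians on the log2 scale. The 10 genes were at −1.15 and −1.37 on that scale in the same libraries. In library 1 of wild type the 10 were at −1.68 and the genes of that length at −0.21. The part of transcript length in the values of the 10 was not tested.

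All 8 unstressed libraries were then set against the 30 °C-grown ones, to ask which genes marked current heat. HSP17.6C, HSP17.6A-CI, HSP21, HSP23.6, HSP23.5 and HSP22.0 were higher in both 30 °C-grown libraries than in any unstressed library, where 5.84% of all genes were. Of the 7 genes that passed the filter without the 30 °C-grown libraries, 3 met this criterion (HSP17.6C, HSP17.6A-CI and HSP23.5), against 5.27% of the genes passing it. For HSP17.6C the margin was small, at 6.47 CPM in the lower 30 °C-grown library and 6.41 CPM in library 2 of sgs3-12. For HSP17.6A-CI it was wide, at 15.1 against 2.72 CPM. For HSP22.0, which is not among the 7, it was 1.41 against 0.185 CPM. HSP17.6B, HSP17.4A, HSP17.6II and HSP17.7 missed the criterion through library 2 of sgs3-12 alone. Without that library all 7 met it, against 5.73% of the genes passing that filter. The library was picked here because these genes missed through it, so that count is no separate support.

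Against the mean of the 4 unstressed groups the median log2 difference of the 10 was 3.15 (2.78 with genes at their bounds) and 2.58 over the 7. It was 4.88 for the 10 without library 2 of sgs3-12 and library 2 of generation 2, an omission chosen after seeing the data. The log2 difference of HSP17.6A-CI was 3.39 ± 0.35 (edgeR adjusted p = 0.0823), which ranked 2 among all genes by p, and that of HSP23.5 was 3.31 ± 0.57 (edgeR adjusted p = 0.103). edgeR called 0 of the 10, with 7 at an unadjusted p under 0.05, 4 of them among the 7 that passed without heat, against 1958 in all (background of calls 0%). It called both of these genes, among 218 genes, without library 1 of generation 2 (edgeR adjusted p = 0.0212 and 0.0465) and, among 181, without library 2 of generation 2 (edgeR adjusted p = 0.0183 and 0.0323). Without library 2 of wild type it called HSP17.6A-CI, among 38 genes (edgeR adjusted p = 0.0497). With a single 30 °C-grown library the edgeR adjusted p of HSP17.6A-CI was 0.671 or 0.511. DESeq2 called 536 genes, 1.22% higher. Among them were HSP17.6A-CI (DESeq2 adjusted p = 6.12e-10), HSP23.5 (DESeq2 adjusted p = 0.000568) and HSP22.0 (DESeq2 adjusted p = 0.0391), which is not among the 7. The highest adjusted p of the last 2 over the alternatives was 1.00.

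The genes varied together to different degrees. As a description over the 10 libraries, which share groups and depth, Pearson's r of log2(CPM + 0.5) was 0.986 between HSP17.4A and HSP17.7 and 0.940 between HSP17.6II and HSP17.7. It was 0.921 between HSP17.6A-CI and HSP22.0, the pair that was low in library 2 of sgs3-12. It was 0.323 between HSP17.6II and HSP22.0 and 0.527 between HSP17.6II and HSP17.6A-CI.

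Other genes of the family and of the heat shock response were read from lists. Of 5 further genes with the same alpha-crystallin domain, all were positive in 30 °C-grown plants against wild type, with a median log2 difference of 2.07, and edgeR called 0. HSP17.8-CI, a class I gene, stood at 0.354 and 1.39 CPM for wild type and at 9.38 and 8.79 CPM at 30 °C (3.38 ± 1.46), and at 1.52 and 17.1 CPM in sgs3-12. HSP15.4 (2.95 ± 0.68) and HSP17.4B-CIII, a class III gene that goes to the nucleus (2.07 ± 0.55), were called by DESeq2. HSP15.7, a peroxisomal gene, differed by 1.02 ± 1.05. HSP15.4 was also at 21.8 and 5.93 CPM in generation 2 against 3.54 and 3.94 CPM in wild type, so there library 1 was the higher.

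Of 21 heat shock factor genes, 16 were tested, 11 positive and 5 negative, with a median of 0.55, and edgeR called 0. HSFA2, which prolongs the heat response, stood at 1.11 and 0.278 CPM for wild type and at 4.96 and 4.52 CPM at 30 °C (2.76 ± 0.78). It was at 1.68 and 3.79 CPM in sgs3-12 and at 1.46 and 2.09 CPM in generation 2. HSFA7A differed by 2.13 ± 0.76, and HSFB1, a class B factor, by 0.98 ± 0.74. HSFB2A, another class B factor, differed by 1.94 ± 0.35 and was the factor gene that DESeq2 called. In unstressed progeny it stood at 18.1 and 20.7 CPM in generation 2 (1.80 ± 0.35 against wild type) and at 18.6 and 20.1 CPM in generation 3 (1.80 ± 0.35). Wild type was at 6.01 and 5.10 CPM, and DESeq2 called HSFB2A higher in both generations. The gene was not particular to progeny in this, as sgs3-12 was at 11.1 and 14.7 CPM (1.22 ± 0.34 against wild type). Both mutant libraries were above both wild-type libraries for HSFB2A, without a DESeq2 call. HSFA1B, named after its values were seen, went the other way, and DESeq2 called it lower in both generations and in sgs3-12. HSFA1B stood at 18.3 and 31.2 CPM in wild type and at 10.1 and 16.0 CPM at 30 °C. It was at 5.27 and 10.3 CPM in generation 2, 7.30 and 5.93 CPM in generation 3, and 7.24 and 7.97 CPM in sgs3-12.

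Of 14 partner chaperones and heat-induced co-factors, 11 were positive, with a median of 1.60, and edgeR called 0. HSP70-4, an inducible cytosolic HSP70, stood at 8.71 and 9.04 CPM for wild type and at 279.9 and 360.1 CPM at 30 °C (5.17 ± 1.59). In sgs3-12 it was at 48.8 and 257 CPM, and in generation 2 at 4.49 and 114 CPM. HSP90.1, the inducible HSP90, was at 6.28 and 8.39 CPM in wild type, at 65.4 and 121 CPM at 30 °C and at 33.7 and 134 CPM in sgs3-12 (3.67 ± 1.34 for 30 °C against wild type). HOP3, which links HSP70 to HSP90, differed by 4.40 ± 1.39 and ROF2, an FKBP-type co-chaperone, by 3.00 ± 1.34. DESeq2 called HSP70-4, HOP3 and the ascorbate peroxidase gene APX2, the last named after its values were seen. HSP101, the disaggregase that works on small heat shock protein complexes, stood at 10.2 and 8.11 CPM for wild type and at 16.0 and 34.0 CPM at 30 °C, and was likewise named after its values were seen.

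The 10 constitutive HSP70 and HSP90 genes differed less, with a median of 0.43 in 30 °C-grown plants and 0 called by edgeR or DESeq2. HSP90.2 differed by 1.01 ± 0.97, MTHSC70-1 by 0.95 ± 0.90, MTHSC70-2 by 0.73 ± 1.11 and HSP90.4 by 0.58 ± 0.98. In sgs3-12 all 10 were positive against wild type, with a median of 1.32, and edgeR called 0 there too. In the same comparison 12 of the 14 partners were positive, with a median of 1.33.

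**Figure D5:**
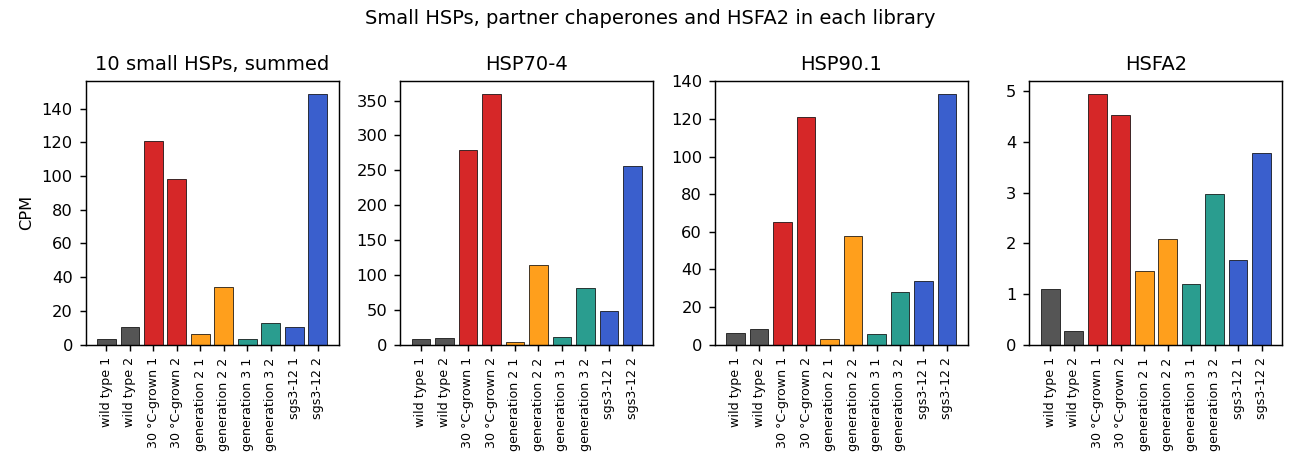
Summed CPM of the 10 small heat shock protein genes, and CPM of HSP70-4, HSP90.1 and the factor HSFA2, in each library (bars from 0, colored by group, 2 libraries each). The summed level is 149 CPM in library 2 of sgs3-12 and 121 and 98.0 CPM in 30 °C-grown plants, and library 2 of sgs3-12 is also the higher of its pair for HSP70-4, HSP90.1 and HSFA2.

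Genes other than the 10 were ranked by how closely their profile over the 10 libraries followed the mean profile of the 10. The ranking covered 17805 genes, other small heat shock protein genes included, by Pearson's r of log2(CPM + 0.5), as a description. AT2G20560 came first (r = 0.960), at 3.98 and 5.05 CPM in wild type, 25.1 and 31.5 CPM at 30 °C and 7.60 and 23.2 CPM in sgs3-12. SRG1 (AT1G17020) followed (r = 0.945), and HSP17.8-CI (AT1G07400) came after it (r = 0.932). The next were AT2G34810, AT4G23680, AT2G07783, AT3G12050, AT3G48390, AT1G09500 and the mitochondrial ATP1 (ATMG01190), down to r = 0.919.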

How the data were processed

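PolyA RNA was sequenced from 10 leaf libraries, 2 for each of 5 groups. The table deposited by the authors held 33602 genes with count columns for all 10 libraries and FPKM columns, of which 8 were used and 2 per-sample columns, which share a name, were not. Per the submitters' processing notes, HISAT2 2.0.4 and StringTie 1.3.0 were used with TAIR10. Neither the counting program nor its strand setting is named in the labels. FPKM of the 30 °C-grown libraries was computed from the deposited counts with the transcript length implied by the other FPKM columns, which 273 genes with counts lack.

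Counts were tested with edgeR 4.0.16 (R 4.3.3; TMM scaling, filterByExpr, quasi-likelihood test, all libraries, group as the factor), with p-values adjusted by Benjamini-Hochberg over all 19768 genes tested at a threshold of 0.05, in 7 comparisons. The filter was also run on the 8 unstressed libraries alone, to count genes that do not owe their place in the test to the 30 °C-grown libraries. Log2 fold changes are edgeR's, also where a DESeq2 call is given. Their SE is approximate, the absolute log2 fold change divided by the square root of the F statistic of the quasi-likelihood test. Scripts were tested on simulated data. DESeq2 1.42.0, limma 3.58.1 on log2(FPKM + 1) (mean FPKM at least 1), other scaling, no filter, the replicate number as a block, only the groups compared, and leaving out libraries were alternatives. Totals of 17674090 to 23145159 counts set the precision. The floor for 0 was 3 counts over a group on TMM-scaled library sizes.

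The genes and lists were chosen with earlier results of these data known. List genes were named when called by edgeR, and otherwise the up to 4 with the largest change against wild type at 30 °C and a mean CPM of at least 1. Like genes were the 10 with the highest r and a mean CPM of at least 1.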

Additional observations from a re-analysis of the deposited data

How the results depend on the processing

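DESeq2 called 276 genes for 30 °C-grown against wild type, 617 for generation 2, 190 for generation 3 and 589 for sgs3-12 against wild type, 319 and 214 for generations 2 and 3 against 30 °C-grown, and 536 for 30 °C-grown against all unstressed groups, with 2, 0, 0, 1, 2, 2 and 3 of the 10 genes among them. The 3 of the last comparison include HSP22.0, which passed the filter on low counts only through the 30 °C-grown libraries. limma called 1, 0, 0, 4, 1, 1 and 1 genes and none of the 10, and its median for sgs3-12 was 2.03 over the 8 genes above its FPKM minimum. With no filter on low counts edgeR called 1 gene for sgs3-12 and 18 for 30 °C-grown against all unstressed groups, 1 of them of the 10. Replicate numbers are shared by all groups, but same-numbered libraries did not deviate together throughout (r −0.27 to 0.45), so they were not treated as pairs. With the replicate block 1 gene was called for generation 2 and 1 for sgs3-12 against wild type, and the median over the 10 was 5.27 for 30 °C-grown against wild type and −5.14 for generation 3 against 30 °C-grown. Without library 1 of generations 2 and 3 together edgeR called 50 genes for 30 °C-grown and 1222 for generation 2 against wild type, 801 for sgs3-12, 788 for generation 2 against 30 °C-grown, and 387 for 30 °C-grown against all unstressed groups, 2 of them of the 10. Without library 2 of sgs3-12 and of generation 2 together, chosen after seeing the data, it called 27 genes for the last comparison, 2 of them of the 10, and the median over the 10 was −0.36 for generation 2, −0.0012 for sgs3-12, −6.87 for generation 2 against 30 °C-grown and 4.88 for the last. Leaving out each library in turn, where a lone library is assumed to vary like the other groups, gave 0 to 34 genes for 30 °C-grown against wild type (34 and 19 without generation 2 library 1 and 2, 1 without wild type library 2), 0 to 1637 for generation 2 (764 and 1637 without its library 1 and 2), 0 to 1 for generation 3, 0 to 5 for sgs3-12, 0 to 487 for generation 2 against 30 °C-grown (487 without its library 1) and 0 to 218 for 30 °C-grown against all unstressed groups, with 0 to 2 of the 10. The medians ran from 3.24 to 6.48, −0.36 to 3.03, −1.08 to 1.52, −0.0022 to 5.48, −6.88 to −2.28 and −6.00 to −3.25 for the first 6 comparisons in the order above.

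Of the single-gene values, 1162 kept their direction and their side of the threshold, 20 moved past it and 37 changed sign. The cause of the sign changes was not tested. As each library in turn was left out, for generation 2 against wild type HSP17.6C ran from −6.23 to 7.06, HSP17.4A from −2.96 to 6.22, HSP17.6II from −0.72 to 3.32 and HSP17.7 from −6.15 to 5.18, each lowest without generation 2 library 2 and highest without wild type library 2. Without generation 2 library 2 and sgs3-12 library 2 together they were at −6.22, −2.96, −0.72 and −6.14. Library 1 of generation 2 held 0, 2, 6 and 0 counts of these genes, and library 1 of wild type 0, 1, 3 and 1. Fits left with such a library rest on few or no counts, so their values are not measured fold changes. That holds below too, where library 1 of generation 3 held 0 counts of HSP17.6II and 1 of HSP17.7. For generation 3 against wild type, leaving out each library gave −1.12 to 6.18 for HSP17.6C, −0.42 to 0.47 for HSP17.6A-CI, −1.04 to 1.20 for HSP17.6B, −1.62 to 4.42 for HSP17.4A, −6.43 to 1.95 for HSP17.6II and −2.54 to 3.21 for HSP17.7, each lowest without generation 3 library 2. There limma gave 0.0050 for HSP17.6C, −0.059 for HSP17.6A-CI, −0.030 for HSP17.6B, −0.098 for HSP17.6II and −0.0029 for HSP17.7. The replicate block gave 0.49 for HSP17.6C and −0.23 for HSP17.6II, and HSP17.6C was at 0.57 without library 1 of both generations. For sgs3-12 against wild type, leaving out each library gave −0.0044 to 9.18 for HSP17.6C, −0.17 to 1.24 for HSP17.6A-CI, −0.076 to 4.64 for HSP17.6B, −0.061 to 7.04 for HSP17.7, each lowest without sgs3-12 library 2, and −4.01 to 2.99 for HSP22.0. Without that library and generation 2 library 2 together HSP17.6C was at −0.0024, HSP17.6A-CI at −0.17, HSP17.6B at −0.075 and HSP17.7 at −0.060. The fit on only the groups compared gave no value for the last comparison, which holds all libraries, and limma gave none for genes under its FPKM minimum. Depth limits HSP21 and HSP22.0, with at most 13 and 35 counts in a library.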
